A study of Drosophila melanogaster with 6 samples.

Results

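The circadian clock of *Drosophila* was followed through 8 genes (*cyc*, *Clk*, *per*, *tim*, *vri*, *Pdp1*, *cwo* and *cry*) in the larval fat body, the tissue that serves the larva as liver and adipose store. The members were all probe sets whose array annotation names one of these genes, by symbol or by gene number. This rule found 10 probe sets of 18769 tested, for 8 genes of 11982. *tim* and *cwo* had 2 probe sets each, the other genes had 1, and no probe set was shared with another named gene.

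The samples were 3 from *delg* mutant larvae, which carry the stop codon allele delg613 over the deficiency Df(3R)ro80b, and 3 from control larvae, which carry a wild type chromosome over the same deficiency. Both genotypes thus lack 1 copy of the deleted region. The labels give 60 pooled fat bodies per sample from larvae 6 days old, in wording that names mutant larvae for the control samples too, while the study's legends speak of late L3 and wandering larvae. For its qPCR of fat bodies, the study took mid-third instar *delg* mutants at 6 days after egg deposition, and controls of that stage at a younger age. The time of day and the light regime at dissection are not given in the sources used here, so genotype, larval stage and hour cannot be told apart.

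In the fly clock, the proteins Clock (from *Clk*) and Cycle (from *cyc*) form a dimer that binds E-box motifs and switches on *per*, *tim*, *vri*, *Pdp1* and *cwo*. Period and Timeless then enter the nucleus and block the dimer, Vrille represses and Pdp1 activates *Clk*, and Clockwork orange, from *cwo*, represses through E-boxes. Cryptochrome, from *cry*, is a blue light receptor that brings about the loss of Timeless. In fly heads *cyc* mRNA is known to stay level over the day while *per*, *tim*, *vri*, *Pdp1* and *Clk* mRNAs cycle, and the adult fat body is known to hold a clock of its own.

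RNA of each sample was hybridised to 1 Affymetrix array. The values are MAS5 signals, a linear brightness per probe set, scaled to the same trimmed mean of 500 on every array. The median signal was 55.5 to 64.8 on the mutant arrays and 62.4 to 75.5 on the control arrays. Detection calls were not used here, so a signal near these medians is read with care. With bulk tissue, fewer cells that express a gene and less RNA per cell cannot be told apart.

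One control sample and one mutant sample stood apart, and both touch the results below. In control replicate 2 the 6 glue gene markers of the salivary gland summed to 281, against 196915 to 239947 in the mutant samples and 202121 to 314596 in the other controls, and the fat body gene Fbp1 had a signal of 1103 there while the other 5 arrays gave 40320 to 65884. On the array of mutant replicate 1 the 4 measured midgut markers (of 6 listed) summed to 57642. The sums were 62.7 and 118 in the other mutant samples and 2667, 70.9 and 5499 in control replicates 1, 2 and 3. In control replicates 1 and 3 most of the sum was *Jon65Aiv* (2577 and 5416), while in mutant replicate 1 all 4 markers were high (3314 to 43059). The part of the low glue gene and Fbp1 signals, or of the midgut signals, in the clock gene values was not tested, beyond leaving each sample out. The probe set for *delg* itself (Ets97D) gave 71.7, 87.1 and 91.9 on the mutant arrays, against 135, 122 and 213 on the control arrays (log2 fold change -0.87, standard error, SE, 0.38, adjusted p = 0.267 from limma). The mutation is a stop codon, so the level of this mRNA is no check of the labels.

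Of the 8 clock genes, *cyc* rose in the *delg* mutant and none fell (limma, adjusted p under 0.05). In all, 4.45% of genes rose and 3.75% fell by this rule. At an unadjusted p under 0.05, 3 of the 8 were higher (*cyc*, *cwo* and *vri*) and 0 lower, where 11.3% of all genes were higher and 11.7% lower. By the methods' t-test without adjustment, 2 were higher (*cyc* and *cwo*) and 0 lower, where 1227 of 11982 genes were higher and 1250 lower. *cyc*, *cwo* and *vri* were also the genes in which every mutant sample lay above every control sample, a pattern found in 14.5% of all genes. In none of the 8 did every mutant sample lie below, a pattern found in 15.6%. Over the 8 genes the median log2 fold change was 0.34, against -0.09 over all genes, and with single samples left out it ran from -0.05 (without mutant replicate 3) to 0.86 (without control replicate 1). The 95% intervals of the other 5 genes all included 0.

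**Figure D1:**
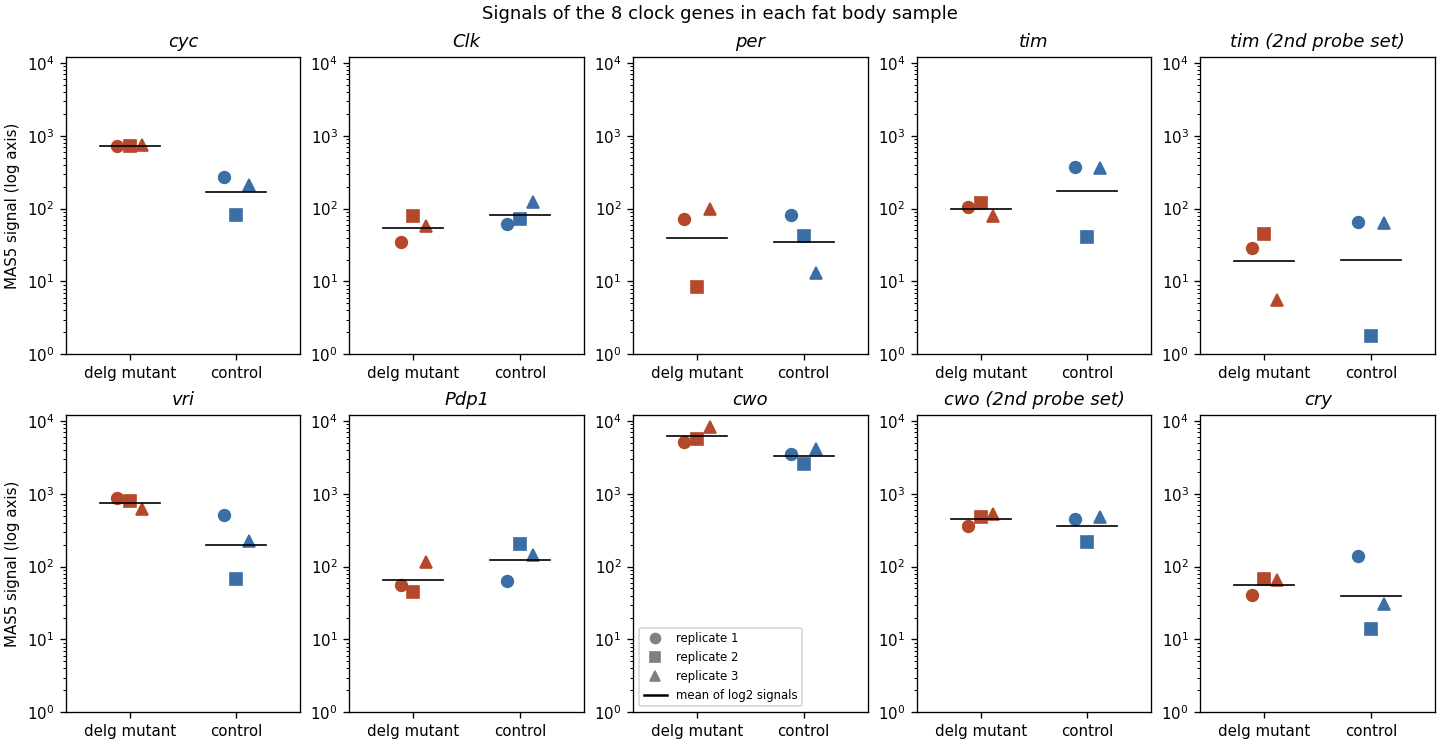
MAS5 signal (log axis) of each clock gene probe set in each sample, with the *delg* mutant left and the control right in each panel. Marker shapes give the replicate number (replicates were not treated as paired), and a line marks the mean of the log2 signals. The 3 mutant signals of *cyc* lie between 718 and 734, all above the controls, and control replicate 2 (blue square) is the lowest of the 6 samples in 7 of 10 panels.

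*cyc* (CG8727) is read from a single probe set. Its signal was 718, 729.5 and 734 in mutant replicates 1, 2 and 3, against 269, 80.7 and 211 in control replicates 1, 2 and 3. The lowest mutant signal was above the highest control signal, and the mutant samples lay far closer together than the controls. The mean was 727 ± 8.19 in the mutant and 187 ± 96.5 in the control (SD, n = 3 each). The difference on the log2 scale was 2.13 (SE 0.42, 95% interval 1.16 to 3.10, adjusted p = 0.0232 from limma), or 4.37-fold higher. Between single arrays, the difference ran from 1.42 to 3.18 on the log2 scale, the larger ones all against control replicate 2.

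The spread of *cyc* differed between the genotypes. On the log2 scale the SD was 0.02 over the mutant samples and 0.92 over the controls. Among the 1001 probe sets of the nearest mean level the median SD was 0.24 in the mutant and 0.36 in the control. A wide control spread was not particular to *cyc*, as the control SD of *vri* was 1.47. Without control replicate 2 the log2 fold change of *cyc* was 1.61 (adjusted p = 0.00255). Its call was lost without any one mutant sample (adjusted p = 0.0854, 0.0907 and 0.110) and without control replicate 3 (0.0601), at log2 fold changes of 2.12 to 2.30, and also with limma without trend (0.121) and by the methods' t-test after adjustment (0.162).

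*Clk* (CG7391) encodes the partner of Cycle. Its signal was 35.0, 80.2 and 58.0 in the mutant samples and 61.7, 72.8 and 123 in the controls. The groups overlapped, and 3 of the 6 signals lay below the median of their array. It had a log2 fold change of -0.59 (SE 0.54, 95% interval -1.82 to 0.64, adjusted p = 0.637). Whether *cyc* and *Clk* responded differently was not tested.

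*per* and *tim* encode the repressor pair that closes the loop. *per* (CG2647) gave 72.2, 8.39 and 99.997 on the mutant arrays, against 81.6, 41.4 and 12.9 on the control arrays. These signals ranged widely within both genotypes and overlapped. The log2 fold change was 0.16 with a 95% interval of -2.36 to 2.68 (adjusted p = 0.962). Its sign turned when some single samples were left out.

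For *tim* (CG3234), leaving out 1 control sample changed the call. Its brighter probe set gave 105, 118 and 78.2 on the mutant arrays, against 366, 40.3 and 361 on the control arrays. The mutant samples lay below control replicates 1 and 3 and above control replicate 2. Over all 6 samples the log2 fold change was -0.82 (SE 0.81, 95% interval -2.67 to 1.03, adjusted p = 0.670). Without control replicate 2, *tim* fell by 1.88 on the log2 scale (adjusted p = 0.00993).

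On the second probe set of *tim* all signals lay below the median of their array. They were 28.6, 44.6 and 5.53 in the mutant samples and 66.0, 1.80 and 64.0 in the controls. Here too control replicate 2 was the lowest sample and the other controls the highest. The difference on the log2 scale was -0.04 (95% interval -3.52 to 3.44, adjusted p = 0.994), which turned positive when the arrays were centred on their medians.

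*vri* and *Pdp1* encode related bZIP proteins that compete for the same sites in the *Clk* gene, with opposite effects. *vri* (CG14029) gave 867, 805 and 609 on the mutant arrays, against 512, 67.6 and 221 on the control arrays. Each mutant sample was above each control sample, with control replicate 1 the nearest. The mean was 760 ± 134 in the mutant and 267 ± 226 in the control (SD, n = 3 each). It had a log2 fold change of 1.93 (SE 0.63, 95% interval 0.49 to 3.38), which did not pass the test (adjusted p = 0.125 from limma). Without control replicate 1 it was 2.62 (adjusted p = 0.0250), and without control replicate 2 it was 1.16 (adjusted p = 0.0919).

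*Pdp1* (CG17888) did not separate the genotypes. Its signal was 55.4, 44.6 and 114 in the mutant samples and 64.1, 203 and 144 in the controls. Control replicate 2, the lowest sample for *vri*, was the highest for *Pdp1*, and mutant replicate 3 lay above control replicate 1. The log2 fold change was -0.91 (SE 0.58, 95% interval -2.24 to 0.42, adjusted p = 0.467). The probe set is not known here to separate the many transcripts of *Pdp1*, of which one class belongs to the clock. *Clk* and *Pdp1* lie near each other on chromosome 3L, with 2 protein-coding genes between them in the Release 6 annotation. Both had point estimates below 0 with intervals that included 0, and a link to position was not tested.

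**Figure D2:**
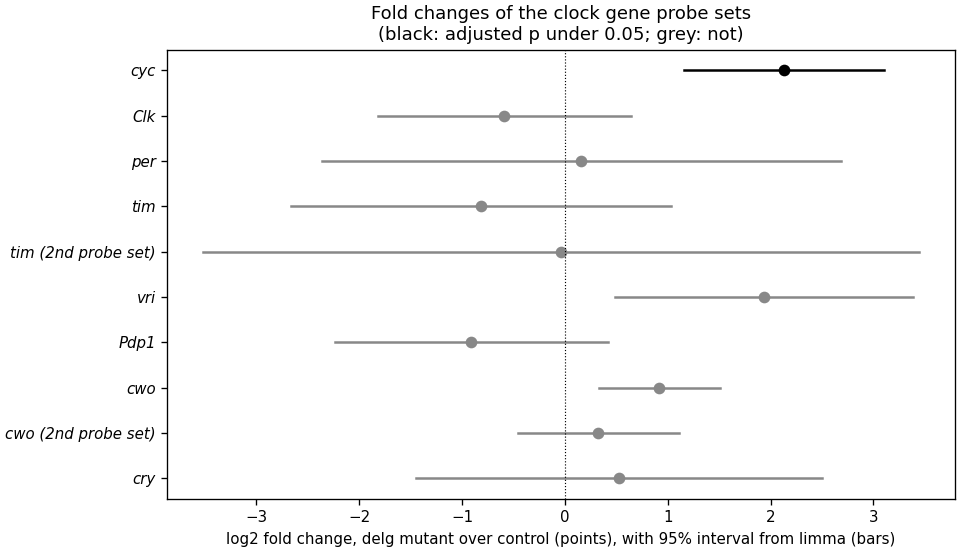
Log2 fold change of each clock gene probe set, *delg* mutant over control (points), with the 95% interval from limma (bars), black where the adjusted p is under 0.05. The intervals of *cyc*, *vri* and the brighter *cwo* probe set lie above 0, and only that of *cyc* (1.16 to 3.10) passed after adjustment over all probe sets.

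*cwo* (CG17100), which encodes a bHLH-Orange repressor that acts at E-boxes, was read from a pair of probe sets. The brighter one gave 5126, 5701 and 8307 in the mutant samples and 3492, 2516 and 4085 in the controls. All mutant samples were above all controls. The mean was 6378 ± 1695 in the mutant and 3364 ± 792 in the control (SD, n = 3 each). The difference on the log2 scale was 0.92 (SE 0.26, 95% interval 0.33 to 1.51, adjusted p = 0.0771 from limma). With arrays centred on their medians, it was 1.06 and passed the test (adjusted p = 0.0306).

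The second probe set of *cwo* did not separate the genotypes. Its signal was 363, 483 and 518 in the mutant samples and 451, 217 and 473 in the controls. Only control replicate 2 lay below the mutant samples. It had a log2 fold change of 0.32 (SE 0.34, 95% interval -0.46 to 1.11, adjusted p = 0.695), and -0.040 without control replicate 2. The mean of both probe sets gave 0.62 (adjusted p = 0.261).

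*cry* (CG3772), the light receptor, gave 40.4, 67.8 and 65.2 on the mutant arrays, against 140.0, 13.9 and 30.7 on the control arrays. The control samples held both the highest and the lowest signal. The estimate was 0.52 (SE 0.86, 95% interval -1.45 to 2.50, adjusted p = 0.819), and its sign turned without control replicate 2, to -0.22.

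Control replicate 2 was the lowest of the 6 samples in 7 of the 10 clock gene probe sets (*cyc*, *vri*, *cry* and both of *tim* and *cwo*) and the highest in 1, *Pdp1*. Over all probe sets it was the lowest in 21.3% and the highest in 24.0%. In *cyc* and *vri* it lay on the same side of the mutant samples as the other controls, and in *tim* on the opposite side. The glue gene and Fbp1 signals given above were also low in control replicate 2, and their part in these values was not tested.

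**Figure D3:**
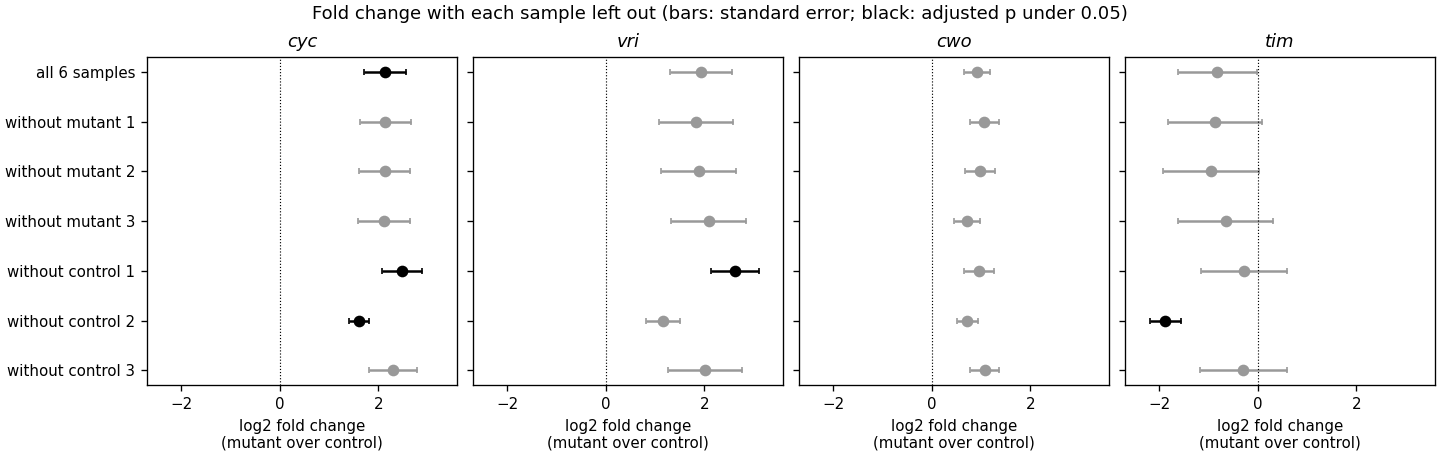
Log2 fold change, *delg* mutant over control, of *cyc*, *vri* and the brighter probe sets of *cwo* and *tim* with all samples and with each sample left out in turn (bars are standard errors, black points have an adjusted p under 0.05 from limma). *cyc*, *vri* and *cwo* stay above 0 throughout, while *tim* ranges from -1.88 without control replicate 2 to -0.29 without control replicate 1.

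For *cyc*, the genes with the most similar pattern were sought among 6618 genes with signals of at least 100 in every sample of at least one genotype. Similarity was Pearson's r of the log2 signals over the 6 samples, given as a description because all genes share the same samples and the difference between genotypes. The first was *Syp*, which encodes an RNA-binding protein (r = 0.9999), at 10903, 11012 and 11037 on the mutant arrays, against 6678, 3523 and 5837 on the control arrays. It was followed by *Yeti* (r = 0.9993) and *Hrs*, which encodes an endosomal sorting protein (r = 0.9992). *Hrs* had a log2 fold change of 1.98 (adjusted p = 0.0187) and *Syp* of 1.09 (adjusted p = 0.0401), and *Yeti* of 0.62 (adjusted p = 0.114). Picked by r over these same samples, all 3 shared the pattern of *cyc*, with control replicate 2 lowest and the mutant samples close together. Leaving out a single mutant sample, or control replicate 3, ended the calls of *Hrs* (adjusted p up to 0.0955) and of *Syp* (up to 0.153).

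The proteins of the clock are timed by kinases, phosphatases and ubiquitin ligases, which work in many other processes as well. Of 10 listed kinases and phosphatases, 5 had a named probe set. After adjustment none rose or fell by limma, against 4.45% and 3.75% of all genes, and none by the methods' t-test. Without adjustment, limma gave 2 higher and 0 lower at p under 0.05, against 11.3% and 11.7% of all genes. The methods' t-test without adjustment also gave 2 higher and 0 lower, where 1227 of 11982 genes were higher and 1250 lower. The median log2 fold change of the 5 was 0.10, and from -0.07 to 0.25 over the alternatives. The one with the smallest p was *dco*, whose product Doubletime phosphorylates Period. It gave 2157, 2373 and 2422 on the mutant arrays, against 1659, 1603 and 1489 on the control arrays. Every mutant sample was above every control, a pattern found in 14.5% of all genes. The log2 fold change of *dco* was 0.55 (SE 0.16, adjusted p = 0.0947 from limma).

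Of 8 genes of ubiquitin ligases and protein turnover, 1 rose and none fell, against 4.45% and 3.75% of all genes, with a median of 0.27. Without adjustment, 3 were higher and 0 lower at p under 0.05, against 11.3% and 11.7% of all genes. *Cul1*, the scaffold of the ligase that holds the F-box proteins Slimb and Jetlag, rose by 1.19 on the log2 scale (SE 0.18, adjusted p = 0.00694). Its signal was 2800, 3493 and 3141 in the mutant samples and 1457, 1446 and 1217 in the controls. The call was lost without mutant replicate 3 (adjusted p = 0.0546). *slmb*, which targets Period, averaged 1602 ± 509 in the mutant and 814 ± 235 in the control (SD, n = 3 each, adjusted p = 0.103), and *jet*, which acts on Timeless after light, averaged 39.2 ± 23.8 in the mutant and 71.5 ± 15.1 in the control (adjusted p = 0.446). Both were named after their values were seen. The count of rises was 2 without control replicate 2, where *ctrip* passed as well, and 2 with centred arrays, where *slmb* did. Over all 11982 genes, 714 rose without control replicate 2 and 686 with centred arrays, against 533 in the main fit.

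Of 11 other cofactors measured (of 12 listed), 2 rose and 1 fell, against 4.45% and 3.75% of all genes. *NAT1* and *Atx2* encode factors known to support the translation of *per* mRNA. *NAT1* gave 11825, 13495 and 12641 on the mutant arrays, against 4201, 4367 and 4012 on the control arrays. The groups were far apart, with a log2 fold change of 1.59 (SE 0.17, adjusted p = 0.00147) that passed the test whichever sample was left out. *Atx2* averaged 2098 ± 237 in the mutant and 1096 ± 85.1 in the control (SD, n = 3 each). Its log2 fold change was 0.93 (adjusted p = 0.0199), and leaving out a single mutant sample, or control replicate 3, ended the call (adjusted p up to 0.117). *tyf*, the partner of *Atx2* in this role, is named after its values were seen. It gave 322 to 346 on the mutant arrays and 318 to 439 on the control arrays (adjusted p = 0.792).

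*Pdfr*, the receptor of the clock neuropeptide PDF, fell. Its signal was 103, 115 and 111 in the mutant samples and 333, 561 and 356 in the controls. All mutant samples were below all controls, at a log2 fold change of -1.88 (SE 0.30, adjusted p = 0.00963). The call was lost without mutant replicate 3 (adjusted p = 0.0559). *Pdf* itself, a gene of neurons, gave 1.95 to 17.2 on the mutant arrays, against 2.61 to 32.5 on the control arrays, all below the median of their array.

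Of 13 listed relatives of the clock proteins (bHLH-PAS factors, a PAR bZIP factor, photolyases and *timeout*), 9 were measured, and 1 rose while none fell (without adjustment, 2 higher and 0 lower at p under 0.05). The median log2 fold change of the 9 was 0.15. Over all genes, 4.45% rose and 3.75% fell, and 11.3% were higher and 11.7% lower without adjustment. The relative that rose was *tai*, which encodes a bHLH-PAS coactivator known from ecdysone and juvenile hormone signalling, as *cyc* encodes a bHLH-PAS protein. *tai* gave 575, 684 and 603 on the mutant arrays, against 231, 296 and 305 on the control arrays. Its log2 fold change was 1.17 (SE 0.23, adjusted p = 0.0204), and leaving out a single mutant sample, or control replicate 3, ended the call (adjusted p up to 0.104). With limma without trend, *NAT1* (adjusted p = 0.0527), *Pdfr* (0.0607), *Cul1* (0.104), *tai* (0.116) and *Atx2* (0.164) did not pass. By the methods' t-test after adjustment *NAT1* (0.0122) and *Cul1* (0.0457) passed, and *tai* (0.0585), *Atx2* (0.0591) and *Pdfr* (0.0606) did not.

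**Figure D4:**
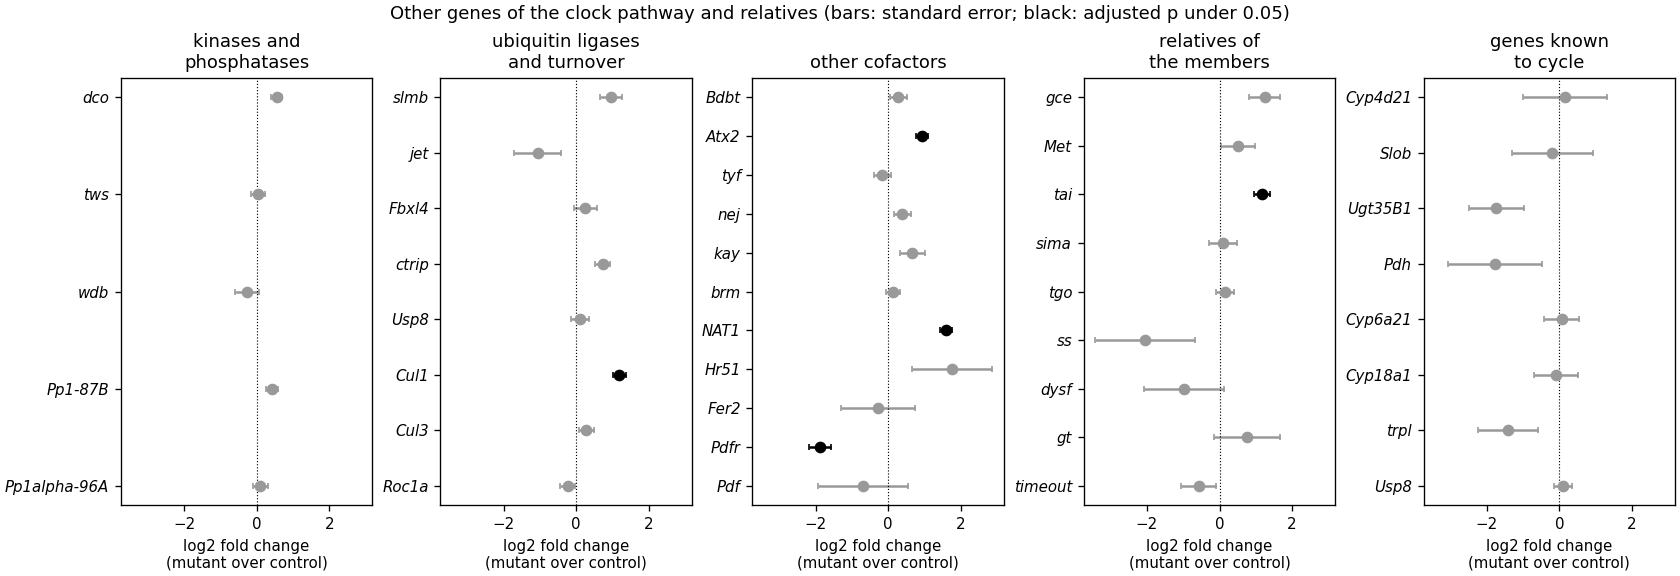
Log2 fold change, *delg* mutant over control, of the measured genes of 5 lists around the clock (points, with standard errors from limma, black where the adjusted p is under 0.05). *Cul1*, *Atx2*, *NAT1* and *tai* lie above 0 and *Pdfr* below 0 among those that passed, and no gene of the lists of kinases and phosphatases or of cycling genes passed.

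Of 9 genes known to cycle in fly tissues, 8 were measured. After adjustment none rose or fell by limma, against 4.45% and 3.75% of all genes. Without adjustment, limma gave 0 higher and 0 lower at p under 0.05, against 11.3% and 11.7% of all genes. The methods' t-test gave 0 with or without adjustment. The median log2 fold change of the 8 was -0.14, and from -0.76 to 0.09 over the alternatives. Of the 8, 4 were below the median of every array. The smallest p was that of *Ugt35B1*, a sugar transferase gene, at 38.6, 21.3 and 11.6 on the mutant arrays, against 34.8, 136 and 74.7 on the control arrays (log2 fold change -1.74, SE 0.76, adjusted p = 0.262). The groups overlapped.

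Clock genes are also expressed in neurons, photoreceptors and the prothoracic gland, and markers of these were read in the same arrays. All 7 measured nervous system markers (of 8) and all 4 photoreceptor markers (of 7) were below the median of every array. The nervous system markers summed to 97.9 to 155 in the mutant samples and 128 to 157 in the controls, and the photoreceptor markers to 36.5 to 88.6 in the mutant samples and 88.3 to 127 in the controls. Of the 5 measured prothoracic gland markers (of 6), *sro* gave 1657 to 2079 on the mutant arrays, against 1192 to 3893 on the control arrays, and *dib*, *sad*, *nvd* and *spok* ranged from 2.58 to 109 in the mutant samples and from 1.75 to 55.9 in the controls. Mutant replicate 1 gave 102 for *sad* and 109 for *spok*, and the other mutant arrays gave 2.58 to 25.0 for these genes. Among the mutant arrays, *nvd* was also highest in replicate 1 (33.1), and *dib* in replicate 3 (31.5). None of the nervous system, photoreceptor and prothoracic gland lists held a gene that rose or fell by limma, against 4.45% and 3.75% of all genes. Without adjustment, 0 were higher and 2 lower at p under 0.05 (*para* and *chp*), against 11.3% and 11.7% of all genes. Without control replicate 2, 1 marker of these lists fell by limma, *sro*, whose mutant signals lay below the other controls (3893 and 3424). With that sample left out, 633 of 11982 genes fell. Of the 5 measured fat body markers (of 8), *Lsp2* gave 57153 to 66533 in the mutant samples and 60841 to 75546 in the controls, and none passed the test.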

How the data were processed

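Fat bodies of 3 *delg* mutant and 3 control samples, which the labels call biological replicates, were compared on Affymetrix *Drosophila* arrays. The deposited intensities are linear MAS5 signals, for which the submitters' processing notes name GCOS 1.4. The authors evaluated them in GeneSpring GX. Log2 was taken here with no constant, filter or further normalization. Of 18952 probe sets, 183 controls were dropped. Symbols in the annotation of the array were brought up to date by gene number with the Release 6 plus ISO1 MT gene table (13647 probe sets with 1 symbol, 402 with several, 4720 with none). For a gene with several probe sets, the one brightest on average in log2 stood for it. The genotypes were tested in limma 3.58.1 under R 4.3.3 (lmFit and eBayes, with trend), two-sided, with p adjusted by Benjamini-Hochberg across 18769 probe sets and a threshold of 0.05. The script was tested on simulated data. An exact permutation test of 3 against 3 samples cannot give a p below 0.1. The number of arrays limits the precision.

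The clock genes and the lists were chosen with earlier results of these data known. Up to 2 genes per direction past the threshold are named from each list, or the one with the smallest p, and from marker lists the brightest. Further genes are marked as named after their values were seen, or appear as members of a marker list. As alternatives, arrays were centred on the median or quantile normalized, 100 was added before log2, dim probe sets were dropped, probe sets of a gene were averaged, limma was run without trend or with a replicate block, the methods' t-test was applied (adjusted and not), and single samples were left out. No sequences were used here.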

Additional observations from a re-analysis of the deposited data

How the results depend on the processing

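The number of clock genes that rose (1) was 2 with each array centred on its median (*cyc* and *cwo*) and by the methods' t-test without adjustment, and 0 with limma without trend (*cyc* adjusted p = 0.121) and by the methods' t-test after adjustment (0.162). It was 0 to 2 with single samples left out. The number that fell (0) was 0 to 1, the 1 being *tim* without control replicate 2. Over all genes, 533 rose and 449 fell, a share of rises of 54.3%. With centring 686 rose and 287 fell (70.5%), and the median over all genes was 0.06 on the log2 scale, against -0.09 without centring. With limma without trend 106 rose and 57 fell, by the methods' t-test 137 and 107 after adjustment and 1227 and 1250 without, and with single samples left out 178 to 714 and 122 to 633. The cause was not tested.

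The replicate block left 338 rises and 215 falls over all genes and *cyc* as the clock gene that rose (adjusted p = 0.0473), while *Atx2* (0.0700), *tai* (0.0630) and *Syp* (0.0791) lost their calls. *Hrs* and *Syp* also lost theirs with limma without trend (0.122 and 0.195) and by the methods' t-test after adjustment (0.157 and 0.171). Deviations from the group means of same-numbered samples correlated at -0.04, -0.07 and -0.01, and no sample correlated best with its own number. The replicates were therefore not treated as paired. With so few samples these correlations cannot exclude a shared batch.

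Signs turned for 4 clock gene probe sets, none of them past the threshold. The dimmer *tim* probe set was 0.11 with centring, 0.22 with quantile normalization and -1.76 to 0.86 with single samples left out. With single samples left out, *per* ran from -0.57 to 1.27, *cry* from -0.22 to 1.44 and the second *cwo* probe set from -0.040 to 0.52. *per*, *cry* and the dimmer *tim* probe set gave no value when dim probe sets were dropped. Low signals limit *per*, *cry*, *Clk*, *Pdp1* and *tim*.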

Other observations

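Markers of further cell types were read beside the clock genes. Of 6 hemocyte markers none passed the test by limma. At an unadjusted p under 0.05, 3 were higher (*Hml*, *srp* and *NimC1*) and 0 lower, against 11.3% and 11.7% of all genes. The brightest was *srp*, a GATA factor gene that the fat body also uses, which gave 4344, 4359 and 6126 on the mutant arrays, against 2698, 3279 and 2986 on the control arrays (adjusted p = 0.0789). The list summed to 6437 to 9090 in the mutant samples and 4640 to 6450 in the controls, so the sums overlapped. The prophenoloxidase genes of the list had estimates below 0. *PPO1* gave 212, 279 and 298 on the mutant arrays, against 1056, 172 and 504 on the control arrays (log2 fold change -0.79, adjusted p = 0.532), and *PPO2* had a log2 fold change of -0.69 (adjusted p = 0.492). Single libraries changed these calls. Without control replicate 2 *srp* rose and *PPO1* fell, and *Hml* rose without control replicate 1 and also with centred arrays.

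Of 5 measured imaginal disc markers (of 6) none passed by limma. At an unadjusted p under 0.05, 2 were higher (*ap* and *dac*) and 0 lower, against 11.3% and 11.7% of all genes. The brightest, *ap*, gave 808 to 1479 on the mutant arrays, against 506 to 685 on the control arrays (adjusted p = 0.170). *dac* gave 61.3, 62.9 and 101 on the mutant arrays, against 34.5, 6.30 and 3.52 on the control arrays, with every mutant sample above every control (adjusted p = 0.114), and it rose without control replicate 1.

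Of 3 measured Malpighian tubule markers (of 4), 1 fell, against 3.75% of all genes. When dim probe sets were dropped 2 fell, with *Oatp58Db* as well, against 587 of 7804 genes. *Irk3*, a potassium channel gene, gave 847, 597 and 650.1 on the mutant arrays, against 2828, 5072 and 2298 on the control arrays. All mutant samples were below all controls, at a log2 fold change of -2.22 (SE 0.30, adjusted p = 0.00497), and the call held with each sample left out, but not with limma without trend (adjusted p = 0.0707) or by the methods' t-test after adjustment (0.0879). Of the 6 glue gene markers none passed over all samples, and without control replicate 2, 1 fell (*Sgs1*), where 633 of 11982 genes fell.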
